A study of Mus musculus with 54 samples.

Results

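The transcripts described here are those of 10 genes that gate entry into S phase, chosen by name: the D cyclins Ccnd1, Ccnd2 and Ccnd3, the inhibitors of cyclin-dependent kinases Cdkn1a, Cdkn1b, Cdkn1c and Cdkn2c, and the regulators Mdm2, Trp53 and Rb1. Through the platform's gene symbols 9 of the 10 genes, of 16637 genes with a probe in all, were matched to 15 of 29922 probes. Ccnd1 had 4 probes, Ccnd3, Cdkn1a and Cdkn1b had 2 each and the other genes had 1, while no probe carried the symbol Trp53, which was not analysed here. The only Mdm2 probe was saturated on 54 of 54 arrays, at deposited intensities of 65460 to 65493, so it carries no fold and no test. The comparisons below therefore rest on 8 genes.

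D cyclins bind the kinases CDK4 and CDK6, and the active complexes phosphorylate the retinoblastoma protein (the product of Rb1), which releases E2F factors to transcribe the genes of DNA replication. The CIP/KIP inhibitors p21 (Cdkn1a), p27 (Cdkn1b) and p57 (Cdkn1c) bind cyclin complexes broadly, and the INK4 protein p18 (Cdkn2c) binds CDK4 and CDK6 themselves. The transcription factor p53 (Trp53) induces Cdkn1a as well as Mdm2, which encodes the ubiquitin ligase that degrades p53. When induced to become fat cells, confluent 3T3-L1 preadipocytes pass through clonal expansion, a short round of cell division, before they leave the cycle.

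The series followed mouse 3T3-L1 cells, an embryonic fibroblast line that can store lipid in culture, over 18 times from 0 to 288 h, with total RNA on 1 single-colour array per arm and time. The arms were 2 µM prieurianin (a limonoid, a plant triterpenoid), 0.5% DMSO (spelled DMASO in one protocol field) and an untreated control that, by the design text, differentiated normally, with 18 arrays each. The labels give neither the moment or make-up of any differentiation stimulus in the treated arms nor separate cultures for each time. With 1 array per arm and time, the sampling times of a window took the place of replicates, and p-values measure the spread of a difference between times that are not independent.

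Levels are log2(intensity + 16) after quantile normalisation, so 1 unit is about a factor of 2, and less than the true factor for dim genes. Median deposited intensity ran from 88 to 313 over the 54 arrays, and the number of arrays limits the precision. At 0 to 1 h the mean of 8 preadipocyte and fibroblast markers was 14.60 to 14.73 in prieurianin cells, 14.60 to 14.69 in DMSO cells and 14.66 to 14.82 in untreated cells. The mean of 8 adipocyte markers was 8.25 to 8.55, 8.17 to 8.28 and 8.16 to 8.41 in the same arms and times. At 96 to 288 h it was 10.23 to 14.03 in prieurianin cells, 13.16 to 13.91 in DMSO cells and 13.18 to 13.86 in untreated cells. The prieurianin array at 192 h stood apart from the other late prieurianin arrays, and its nearest neighbour was the untreated array of 144 h (r = 0.971 over the tested genes, which are not independent of each other). The late differences of the 8 genes that passed a test are therefore given with and without it.

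RefSeq promoters, from the GRCm38.p6 table, were matched for 6 of the 10 genes with 9 start sites. The 250 bases before each start were searched on both strands for the p53 element (with at most 1 mismatch in its 20 bases, none of them in the C and G of either core, a tolerance chosen after the Cdkn1a sequence was seen), the GC box GGGCGG, the AP-1 site TGACTCA, the TEAD site GGAATG, the E2F sites TTTCCCGC, TTTGGCGC, TTTCGCGC and TTTGCCGC, and the CArG box by name. Of 32851 promoters of this length, 0.0457% held a p53 element, 32.7% a GC box, 12.6% a TEAD site, 4.46% an AP-1 site, 1.86% an E2F site and 1.47% a CArG box. Promoters of Cdkn1a, Ccnd3 and Cdkn2c are shown because these 3 genes passed a test between the arms. Ccnd3 and Cdkn2c had 2 starts each and 1 is shown, while the other window held 2 GC boxes for Ccnd3 and none of the motifs for Cdkn2c. Capitals mark the p53 element in the distal Cdkn1a promoter, GC boxes elsewhere, and the TEAD match CATTCC near the end of the Ccnd3 sequence, and no marked matches overlap.
Cdkn1a distal start, chr17:29090729-29090978, plus strand: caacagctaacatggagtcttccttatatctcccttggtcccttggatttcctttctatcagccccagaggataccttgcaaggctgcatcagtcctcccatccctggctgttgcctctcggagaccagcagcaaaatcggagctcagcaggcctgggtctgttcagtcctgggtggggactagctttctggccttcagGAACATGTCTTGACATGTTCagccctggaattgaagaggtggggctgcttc
Cdkn1a proximal start, chr17:29093519-29093768, plus strand: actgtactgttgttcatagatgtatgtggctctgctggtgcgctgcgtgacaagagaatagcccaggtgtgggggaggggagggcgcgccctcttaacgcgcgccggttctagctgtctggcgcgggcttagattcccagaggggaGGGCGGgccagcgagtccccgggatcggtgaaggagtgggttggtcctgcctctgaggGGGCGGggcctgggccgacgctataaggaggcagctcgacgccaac
Ccnd3, chr17:47593217-47593466, plus strand: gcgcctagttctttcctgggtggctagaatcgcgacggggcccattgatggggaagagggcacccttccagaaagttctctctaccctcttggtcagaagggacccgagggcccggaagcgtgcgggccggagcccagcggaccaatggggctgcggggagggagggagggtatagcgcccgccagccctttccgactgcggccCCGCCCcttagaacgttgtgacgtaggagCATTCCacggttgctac
Cdkn2c, chr4:109666757-109667006, minus strand: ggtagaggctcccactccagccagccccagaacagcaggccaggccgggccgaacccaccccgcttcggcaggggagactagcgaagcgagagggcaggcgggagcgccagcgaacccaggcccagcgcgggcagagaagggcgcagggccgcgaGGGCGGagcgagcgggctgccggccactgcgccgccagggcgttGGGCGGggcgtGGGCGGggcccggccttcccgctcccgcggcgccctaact
The p53 element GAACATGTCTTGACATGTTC, which ends 32 bases before the distal Cdkn1a start, was the only match to that motif among the 9 promoters. The p53 protein was not measured here, and a match describes the letters only.

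Ccnd1 was lower in prieurianin cells than in both control arms at 9 to 15 h. Ccnd1 encodes cyclin D1, whose transcript is induced by mitogens. At 9, 12 and 15 h its level was 14.55, 13.25 and 13.15 in prieurianin cells, 15.40, 15.25 and 14.82 in DMSO cells and 15.52, 15.36 and 15.18 in untreated cells. All 3 prieurianin arrays lay below all DMSO and untreated arrays of these hours. Ccnd1 was 2.85-fold lower than with DMSO (log2 difference -1.51 ± 0.27 SE, limma adjusted p = 0.00023 over 12792 genes) and 3.26-fold lower than in untreated cells (-1.70 ± 0.27, adjusted p = 3.29e-05). Its change from 0 to 1 h within prieurianin cells was -0.98 ± 0.43 and did not pass (adjusted p = 0.101). The changes of 0.51 ± 0.43 in DMSO cells and 0.665 ± 0.431 in untreated cells did not pass either (adjusted p = 0.458 and 0.305). In RNA from whole cultures, fewer cells of a type and less RNA per cell cannot be told apart.

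The Ccnd1 difference from DMSO opened and closed within the sampled course. At 5 h Ccnd1 was at 14.82 in prieurianin cells, 15.13 in DMSO cells and 15.10 in untreated cells. At 12 h the prieurianin level was below the DMSO level by a factor of 3.996 and below the untreated level by a factor of 4.32. At 24 h the 3 arms stood at 14.20, 14.08 and 14.70 in the same order, so the prieurianin array was back between the other two. Mean levels went from 13.65 at 9 to 15 h to 13.78 at 24 to 48 h in prieurianin cells. They went from 15.16 to 13.83 in DMSO cells and from 15.35 to 14.22 in untreated cells, so the gap between window means narrowed mainly through lower control means. From 15 to 24 h, however, the prieurianin level rose while both control levels fell. The difference from DMSO at 9 to 15 h differed from that at 0.25 to 1 h by -1.44 ± 0.38 (adjusted p = 0.023), and that at 24 to 48 h differed from it in turn by 1.46 ± 0.38 (adjusted p = 0.032). Over all genes the first of these tests called 5.38% (2.31% lower) and the second 3.42% (2.16% higher). The other 7 genes passed neither test, and between 24 to 48 h and 96 to 288 h none of the 8 did, against 0.0938% of all genes.

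The 4 Ccnd1 probes, whose mean levels span 11.11 to 14.16, followed each other over the 54 arrays with Pearson correlations of 0.955 to 0.993 (a description, since the arrays share the time course). In the fit to all probes each passed the test at 9 to 15 h, where 12.9% of all probes passed against DMSO and 22.4% against untreated cells. The differences from DMSO were -1.51 (mMR030527), -1.41 (mMR027630), -1.42 (mMC006228) and -1.61 (mMC024692), with adjusted p of 0.000284 to 0.000691. Against untreated cells they ran from -1.94 to -1.65. The change of the difference from 0.25-1 h to 9-15 h passed with 2 of the 4 probes (adjusted p = 0.0278 and 0.0339, against 0.0596 and 0.0823), and that from 9-15 h to 24-48 h with 3 of the 4 (0.0702 for mMR027630), where 4.11% and 2.37% of all probes passed.

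**Figure D1:**
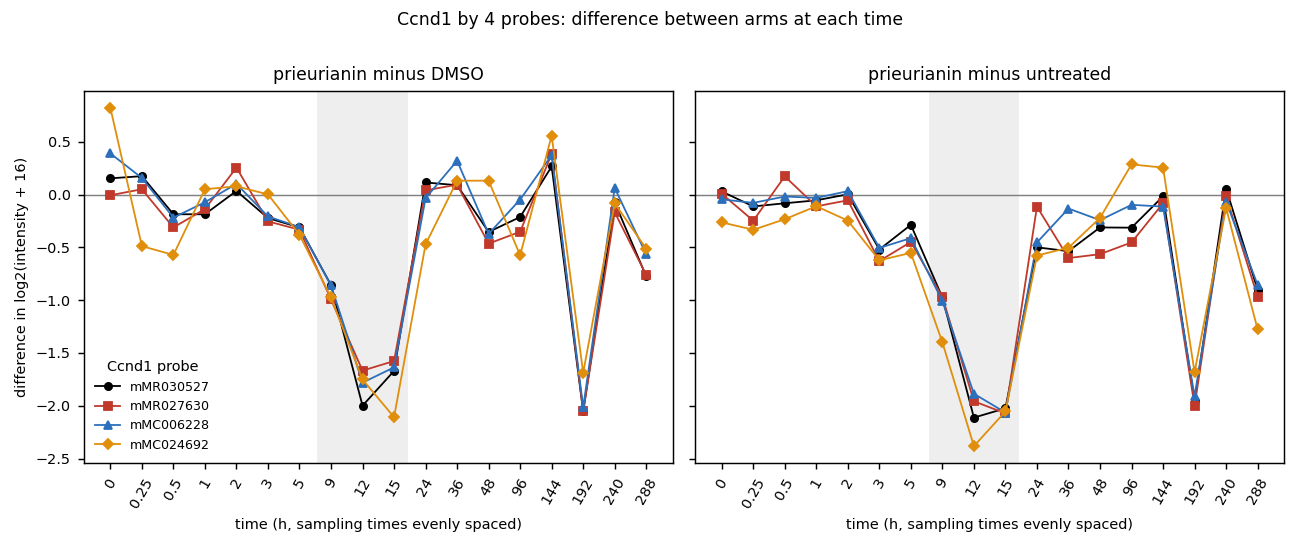
Difference in Ccnd1 level (log2 of intensity + 16) between prieurianin and DMSO arrays (left) and between prieurianin and untreated arrays (right) at each of the 18 sampling times in hours, with 1 line per probe. All 4 probes lie below 0 at 9, 12 and 15 h (shaded) and again at 192 h, where the prieurianin array stands apart.

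Of the 8 genes, 4 passed the test between prieurianin and DMSO at 9 to 15 h, 2 higher (Cdkn1a, Rb1) and 2 lower (Ccnd1, Ccnd3), against 15.9% of all genes tested (7.33% higher, 8.59% lower, or 938 and 1099 genes, and 467 and 909 genes without scaling). Their median difference was -0.063, and that of all genes -0.014. At 0.25 to 1 h and at 2 to 5 h none of the 8 passed, against 0% and 0.141% of all genes. At 24 to 48 h again none passed, against 1.28%. In the late window, 96 to 288 h, Cdkn2c alone passed, lower, against 17% (9.44% lower).

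Relative to untreated cells, 3 of the 8 passed at 9 to 15 h, Rb1 higher and Ccnd1 and Ccnd3 lower, against 25.4% of all genes (11.8% higher, 13.6% lower, and without scaling 618 higher and 2896 lower genes). None passed at 0.25 to 1 h (0.539% of all genes), 2 to 5 h (3.49%) or 24 to 48 h (8.18%). Ccnd1 and Cdkn2c passed at 96 to 288 h, both lower, against 22.4% (10.8% lower). Without the prieurianin 192 h array Ccnd1 no longer passed (-0.27, adjusted p = 0.2), and Cdkn2c and Rb1 passed, both lower. In the fit to all probes without that array, 27.5% of all probes passed either way in this comparison, and the share of all genes is not given here. Between DMSO and untreated cells none of the 8 passed in any of the 5 windows, where limma called 0.0469%, 2.81%, 5.61%, 9.93% and 3.53% of all genes in order of time. The comparisons with DMSO and with untreated cells share the prieurianin arrays.

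**Figure D2:**
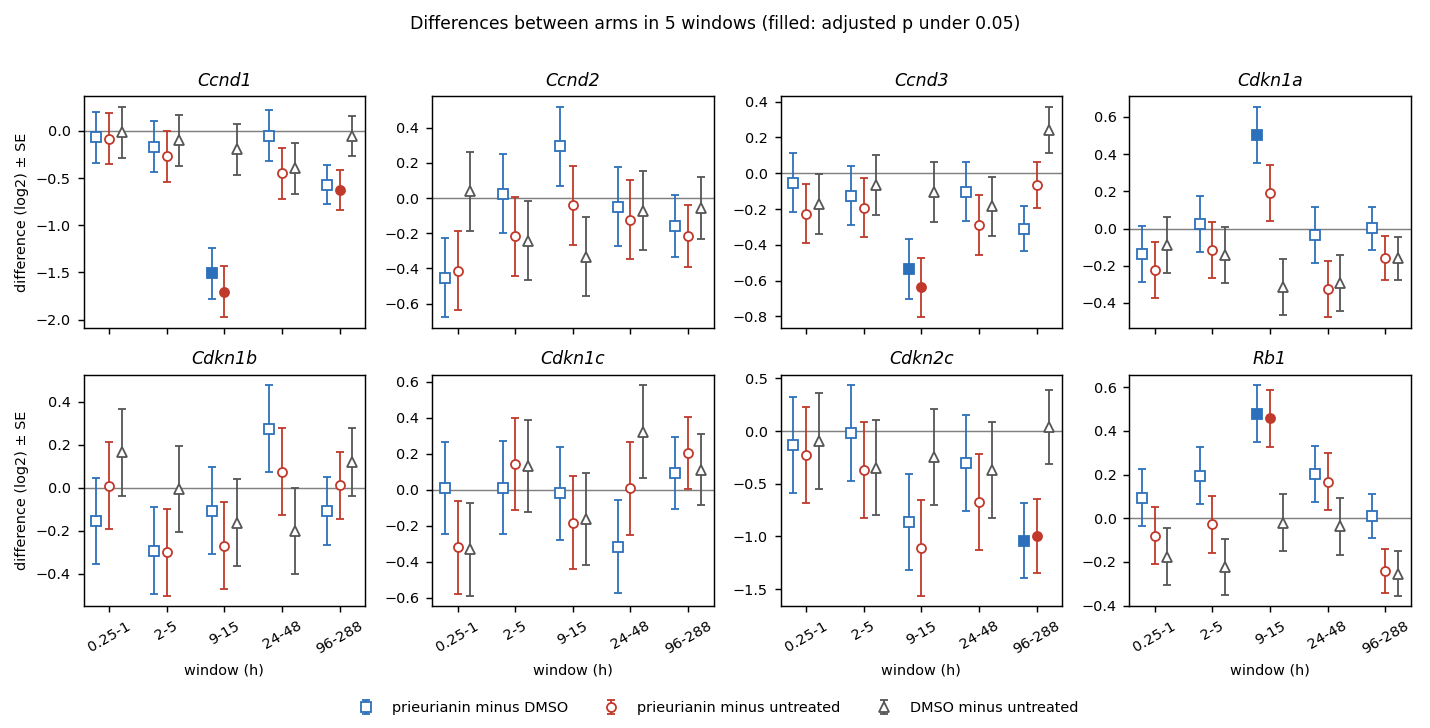
Difference between arms (log2 units, ± SE of the limma fit) in 5 windows of hours for each of the 8 genes: prieurianin minus DMSO (squares), prieurianin minus untreated (circles) and DMSO minus untreated (triangles), filled where the adjusted p is under 0.05. Ccnd1 is lowest at 9-15 h, with -1.51 against DMSO and -1.70 against untreated cells, and no triangle is filled.

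Among the other D cyclins Ccnd3, which encodes cyclin D3, was lower with prieurianin at 9 to 15 h. Its level was 13.48, 12.98 and 13.44 in prieurianin cells, 13.78, 13.83 and 13.90 in DMSO cells and 13.74, 14.04 and 14.03 in untreated cells. The groups did not overlap, and the 12 h array was the lowest of the prieurianin arrays. Ccnd3 was lower by 0.53 ± 0.17 on the log2 scale than with DMSO (adjusted p = 0.0257) and by 0.64 ± 0.17 than in untreated cells (adjusted p = 0.00517). Without 12 h the differences were -0.38 and -0.43 and neither passed (adjusted p = 0.311 and 0.163). The comparison with DMSO was also lost without 15 h (adjusted p = 0.112) and with median centring (0.193).

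A second, dim Ccnd3 probe (mMR027188) with deposited intensities of 55 to 403 correlated with the first at only 0.396 over the 54 arrays. Its difference at 9 to 15 h was -0.63 against DMSO (adjusted p = 0.0877) and -1.31 against untreated cells (adjusted p = 0.000221). That probe was also lower in DMSO than in untreated cells at 2 to 5 h, by -1.14 (adjusted p = 0.0102, with 3.38% of all probes called), where the bright probe gave -0.07 (adjusted p = 0.917).

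Ccnd2, which encodes cyclin D2, did not pass between arms in any window. At 9, 12 and 15 h its level was 12.09, 12.62 and 12.19 in prieurianin cells, 12.08, 12.07 and 11.86 in DMSO cells and 12.56, 12.32 and 12.13 in untreated cells. The prieurianin values lay within the untreated range except at 9 and 12 h, where one was lower and one higher, and all were above the DMSO values. The difference from DMSO was 0.29 ± 0.22 (adjusted p = 0.442), opposite in sign to those of Ccnd1 and Ccnd3. At 0.25 to 1 h it was -0.45 ± 0.22, lower with prieurianin at 3 of 3 times but with an adjusted p of 1.

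Of the kinase inhibitors Cdkn1a, which encodes p21, was higher with prieurianin than with DMSO at 9 to 15 h. Its level was 14.86, 14.59 and 14.53 in prieurianin cells, 14.18, 14.19 and 14.10 in DMSO cells and 14.47, 14.46 and 14.49 in untreated cells. The prieurianin arrays were the highest of the 3 arms at each of these times, and the untreated arrays lay between the other two arms. The difference from DMSO was 0.50 ± 0.15 (adjusted p = 0.0214), and that from untreated cells 0.19 ± 0.15 (adjusted p = 0.401). The call against DMSO did not survive leaving out 9, 12 or 15 h (adjusted p = 0.155, 0.0853 and 0.0945), and was also lost with median centring (0.315), without scaling (0.126) and with only these 2 arms in the fit (0.0516).

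The second Cdkn1a probe (mMC021344) did not show this difference. At 9, 12 and 15 h it read 13.26, 12.96 and 12.76 in prieurianin cells, 12.66, 12.79 and 12.72 in DMSO cells and 13.16, 12.60 and 13.22 in untreated cells. The arms overlapped, with a difference of 0.27 from DMSO (adjusted p = 0.509). Late, from 96 to 288 h, that probe was lower with prieurianin than in DMSO cells by -0.66 (adjusted p = 0.00951) and than in untreated cells by -1.03 (adjusted p = 8.56e-05), with 14.4% and 19.9% of all probes called. Without the prieurianin 192 h array, its lowest value at 11.307, these were -0.52 and -0.90 (adjusted p = 0.0293 and 0.000289), in a fit chosen after the data were seen. That fit called 24.3% and 27.5% of all probes. With all arrays the first probe gave 0.001 ± 0.118 and -0.16 ± 0.12. The correlation of the probes over the 54 arrays was 0.741, and which of them follows the Cdkn1a transcript more closely was not tested.

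Cdkn2c, which encodes p18, was lower in prieurianin cells in the late window. At 9, 12 and 15 h its level was 9.64, 9.46 and 9.44 in prieurianin cells, 10.07, 10.29 and 10.76 in DMSO cells and 10.49, 10.42 and 10.95 in untreated cells. The prieurianin arrays lay below all others of these hours, yet the difference from DMSO, -0.86 ± 0.46, did not pass (adjusted p = 0.223), nor did that from untreated cells, -1.11 ± 0.46 (adjusted p = 0.0758). Without the prieurianin 192 h array, which enters the shared error of the fit, the same 2 differences passed (adjusted p = 0.00495 and 0.000332). At 24 to 48 h the arms overlapped for DMSO, and the differences were -0.30 ± 0.455 (adjusted p = 0.831) and -0.68 ± 0.455 (adjusted p = 0.428, or 0.042 without that array).

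At 96, 144, 192, 240 and 288 h Cdkn2c was at 10.95, 10.72, 13.14, 9.30 and 9.83 in prieurianin cells. DMSO cells had 11.92, 12.39, 11.07, 11.91 and 11.84, and untreated cells 11.65, 12.41, 11.61, 11.39 and 11.88. Prieurianin was lower than both at 4 of 5 times, and at 192 h it held the highest Cdkn2c level of all 54 arrays. The difference was -1.04 ± 0.35 from DMSO (adjusted p = 0.0412) and -0.999 ± 0.352 from untreated cells (adjusted p = 0.0405). Without that array they were -1.74 and -1.70 (adjusted p = 5.19e-08 and 6.06e-08). With it the call against DMSO sat close to the threshold and was lost in 18 of 26 alternative settings, among them the 4 that left out 96, 144, 240 or 288 h (-1.06 to -0.65).

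On the same 5 late prieurianin arrays the adipocyte marker mean was 12.07, 12.25, 14.03, 10.53 and 10.23, against 13.16 to 13.91 over the DMSO arrays. It was highest at 192 h and lowest at 240 and 288 h, as was Cdkn2c. The 5 smooth muscle markers averaged 9.87 to 10.16 in prieurianin cells, against 8.30 to 9.27 in DMSO cells and 8.69 to 9.36 in untreated cells. The part of these markers in the Cdkn2c difference was not tested. Keratins 8 and 18, the 2 epithelial markers above the intensity filter, ran late from 6.06 to 10.27 with prieurianin, 7.78 to 10.25 with DMSO and 7.74 to 9.86 untreated.

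The other CIP/KIP genes were dim. Cdkn1b, which encodes p27, had deposited intensities of 57 to 171, and its second probe, at 11 to 71, fell under the intensity filter. Cdkn1c, which encodes p57 and is an imprinted gene, ran from 159 to 854. Neither passed between arms in any window, and their differences from DMSO at 9 to 15 h were -0.11 ± 0.20 and -0.02 ± 0.26. At such signals changes of the transcripts may be smaller on this scale than in the cells.

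Rb1 was higher with prieurianin than in DMSO and untreated cells at 9 to 15 h. Its change from 0 to 1 h within prieurianin cells was 0.36 ± 0.16 and did not pass in limma (adjusted p = 0.112). Its level was 8.58, 9.05 and 8.67 in prieurianin cells, 8.17, 8.36 and 8.33 in DMSO cells and 8.05, 8.51 and 8.37 in untreated cells. The prieurianin arrays lay above all the others, the 12 h array most. The difference was 0.48 ± 0.13 from DMSO (adjusted p = 0.0105) and 0.46 ± 0.13 from untreated cells (adjusted p = 0.00988). Without 12 h they were 0.37 (adjusted p = 0.192) and 0.42 (0.0879), without 9 h the second was also lost (0.0614), and both were lost with median centring (0.177 and 0.21) and without scaling (0.154 and 0.412). The 1 Rb1 probe was modest in signal, at 196 to 773 deposited units.

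Late, from 96 to 288 h, Rb1 stood at 8.78, 8.88, 9.57, 9.12 and 9.40 in prieurianin cells, 8.62, 9.42, 9.27, 9.11 and 9.27 in DMSO cells and 9.26, 9.50, 9.43, 9.52 and 9.25 in untreated cells. The arms overlapped, with differences of 0.01 ± 0.10 from DMSO (adjusted p = 0.959) and -0.24 ± 0.10 from untreated cells (adjusted p = 0.086). Leaving out the prieurianin 192 h array, the second was -0.33 and passed (adjusted p = 0.0146), opposite in sign to the difference at 9 to 15 h. It also passed without scaling (-0.44, adjusted p = 0.0308) and without 288 h (-0.34, 0.0291).

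**Figure D3:**
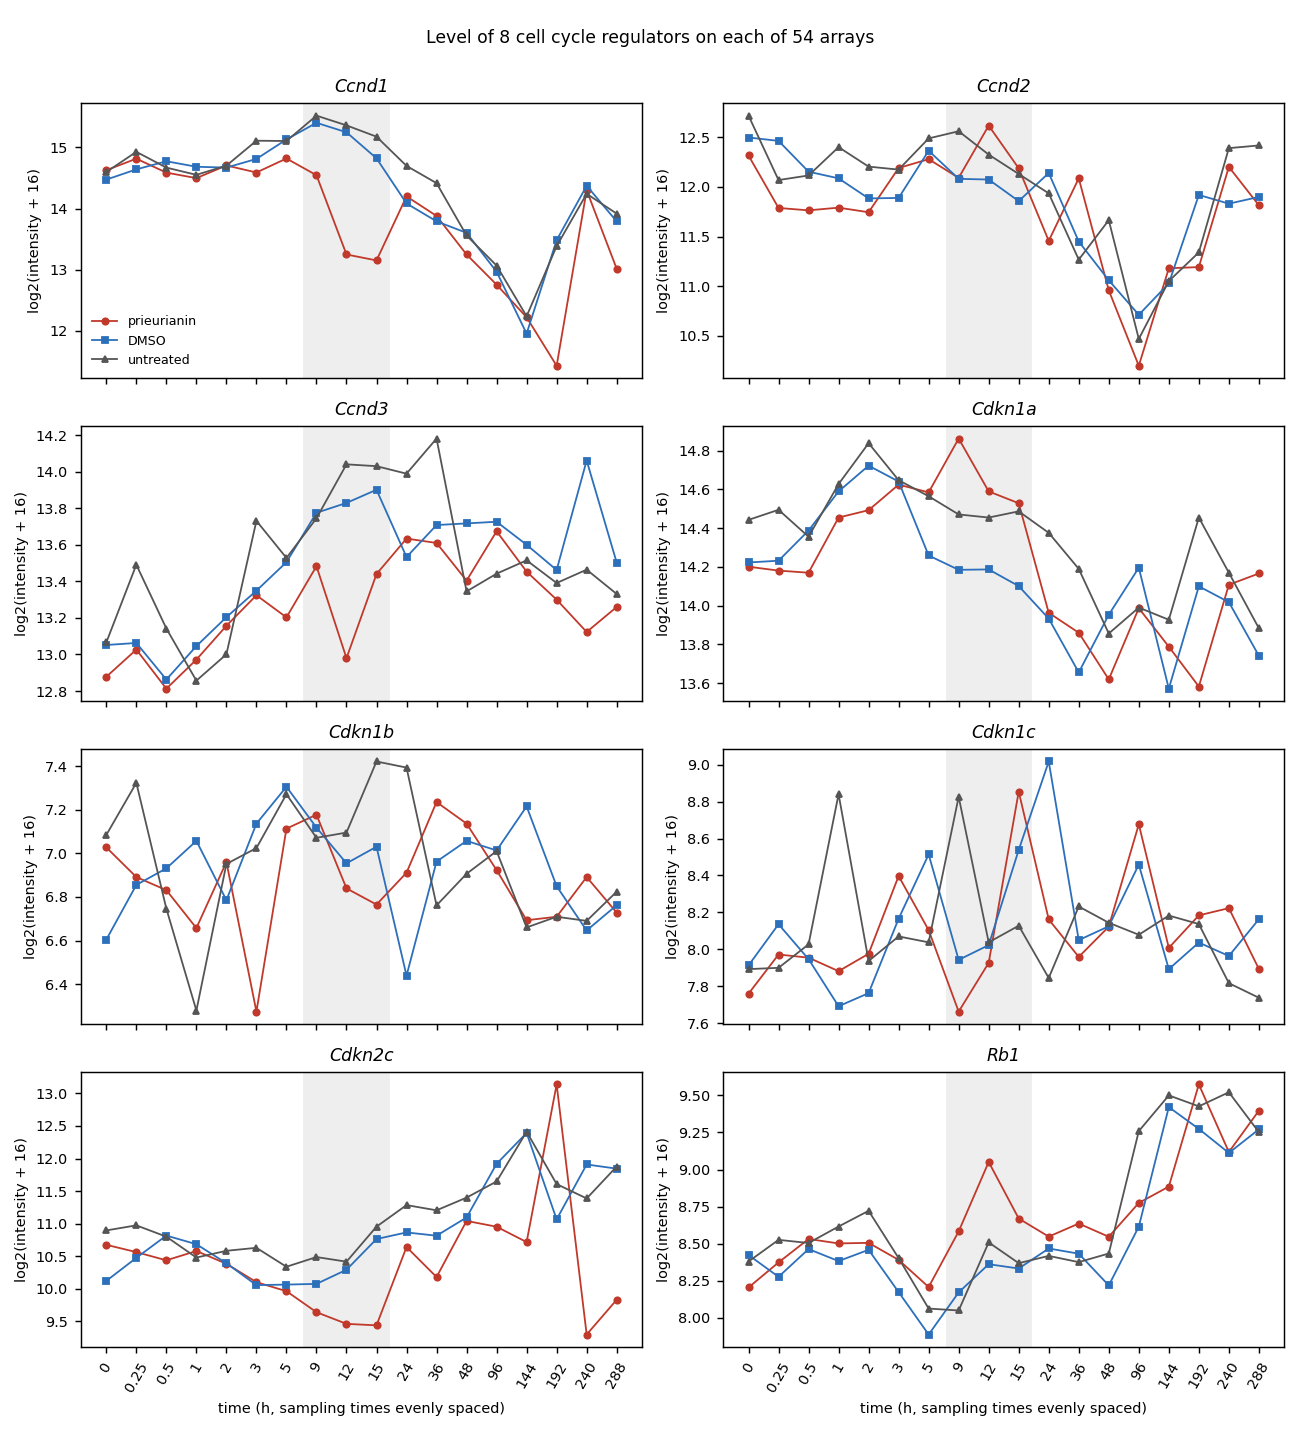
Level of each of the 8 genes, log2(intensity + 16), on every array against sampling time in hours (evenly spaced), with prieurianin as circles, DMSO as squares and untreated cells as triangles and the 9-15 h window shaded. Ccnd1 is at 13.25 and 13.15 with prieurianin at 12 and 15 h, below both control arms, and Cdkn2c reaches 13.14 on the prieurianin 192 h array.

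Over the whole course 6 of the 8 genes changed in at least 1 arm, and the dim inhibitors Cdkn1b and Cdkn1c passed no test of change. At 96 to 288 h minus 0 to 1 h Ccnd1 fell by 1.89 ± 0.38 in prieurianin cells, by 1.33 ± 0.38 in DMSO cells and by 1.32 ± 0.38 in untreated cells (adjusted p = 0.000136, 0.00508 and 0.00524). The change in prieurianin cells was -1.56 without the prieurianin 192 h array. Rb1 rose by 0.75 ± 0.14, 0.75 ± 0.14 and 0.88 ± 0.14 in the same arms (adjusted p = 8.29e-05, 6.11e-05 and 4.59e-06), and by 0.64 in prieurianin cells without the 192 h array. Without scaling its rise in prieurianin cells was 0.427 and did not pass (adjusted p = 0.0762). In the late window 3 of the 8 genes passed in prieurianin cells (32.6% of all genes), 6 in DMSO cells (33.3%) and 5 in untreated cells (35.4%).

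Late Ccnd1 was spread widely. At 96, 144, 192, 240 and 288 h it was at 12.76, 12.22, 11.43, 14.30 and 13.02 in prieurianin cells, 12.97, 11.96, 13.48, 14.37 and 13.79 in DMSO cells and 13.07, 12.24, 13.39, 14.24 and 13.92 in untreated cells. In every arm the 240 h array was the highest of the 5. The late difference from untreated cells was -0.63 ± 0.21 (adjusted p = 0.0313) and that from DMSO -0.57 ± 0.21 (adjusted p = 0.0614). Without the prieurianin 192 h array they were -0.27 (adjusted p = 0.2) and -0.22 (adjusted p = 0.33).

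Cdkn2c rose late by 1.30 ± 0.36 in DMSO cells (adjusted p = 0.00343) and by 0.999 ± 0.355 in untreated cells (adjusted p = 0.0239, lost in 4 of 24 alternative settings). In prieurianin cells its change was 0.22 ± 0.36 (adjusted p = 0.678), and -0.36 without the 192 h array (-0.365 before rounding, adjusted p = 0.268). Whether these courses differ was tested directly, and the difference of -1.08 ± 0.50 between the prieurianin and DMSO courses did not pass (adjusted p = 0.451). None of the 8 genes passed a test of course difference against DMSO, where 2.59%, 0.25% and 0.469% of all genes passed at 9 to 15, 24 to 48 and 96 to 288 h. Against untreated cells again none passed, where 2.95%, 0.227% and 0.672% of all genes did. The fit of courses holds no time factor, so arms were not matched by time in it. For Ccnd1 at 9 to 15 h it gave -1.498 ± 0.61 against DMSO (limma adjusted p = 0.221). The fit matched by time gave -1.443 ± 0.384 for the change of the difference between 0.25-1 h and 9-15 h (adjusted p = 0.0226).

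Ccnd3 rose by 9 to 15 h in both control arms and by 24 to 48 h in all 3 arms. At 9 to 15 h minus 0 to 1 h it rose by 0.83 ± 0.16 in DMSO cells and by 0.80 ± 0.16 in untreated cells (adjusted p = 0.00033 and 0.000359), and its change in prieurianin cells was 0.38 ± 0.16 (adjusted p = 0.0925). At 24 to 48 h it had risen in all 3 arms, by 0.63 ± 0.16, 0.65 ± 0.16 and 0.70 ± 0.16 with prieurianin, with DMSO and untreated. These calls were lost without scaling (adjusted p = 0.124, 0.114 and 0.14), the prieurianin and DMSO calls also with median centring (0.101 and 0.409) and the untreated call without 36 h (0.0709). Late changes were 0.44 ± 0.14 (adjusted p = 0.0146), 0.66 ± 0.14 (0.000259) and 0.29 ± 0.14 (0.113) in that order. The late prieurianin call was lost in 4 of 24 alternative settings, among them no scaling (0.179, adjusted p = 0.474) and median centring (0.418, adjusted p = 0.158).

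Cdkn1a rose in prieurianin cells at 9 to 15 h, by 0.41 ± 0.15 (adjusted p = 0.0456, lost in 12 of 24 alternative settings), while its changes in DMSO and untreated cells were -0.20 ± 0.15 and -0.01 ± 0.15. It was the 1 gene of the 8 called at that window in prieurianin cells (20.2% of all genes), and Ccnd3 was the 1 called in DMSO cells (19.1%) and in untreated cells (20.6%). At 24 to 48 h Cdkn1a had fallen by 0.44 ± 0.15 in prieurianin cells (adjusted p = 0.0469, lost in 13 of 24 settings) and by 0.51 ± 0.15 in DMSO cells (adjusted p = 0.0159). In untreated cells its change was -0.34 ± 0.15 (adjusted p = 0.126). With Ccnd3 this made 2 called genes in prieurianin cells (11.9% of all genes), 2 in DMSO cells (15.5%) and 1 in untreated cells (13.1%).

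Late, Cdkn1a fell by 0.43 ± 0.13 in DMSO cells and by 0.40 ± 0.13 in untreated cells (adjusted p = 0.0083 and 0.0153), with -0.33 ± 0.13 in prieurianin cells (adjusted p = 0.0514). The DMSO and untreated calls were lost with median centring (adjusted p = 0.172 and 0.41) and without 1 h (0.0517 and 0.0562). Ccnd2 fell by 0.82 ± 0.32 and 0.79 ± 0.32 in DMSO and untreated cells (adjusted p = 0.0396 and 0.0457, lost in 7 and 16 of 24 settings), and its change in prieurianin cells was -0.60 ± 0.32 (adjusted p = 0.148). Its lowest level in each arm was at 96 h, with 10.20 in prieurianin cells, 10.71 in DMSO cells and 10.47 in untreated cells. At 2 to 5 h none of the 8 had changed, where 11%, 9.71% and 12.8% of all genes had in prieurianin, DMSO and untreated cells.

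**Figure D4:**
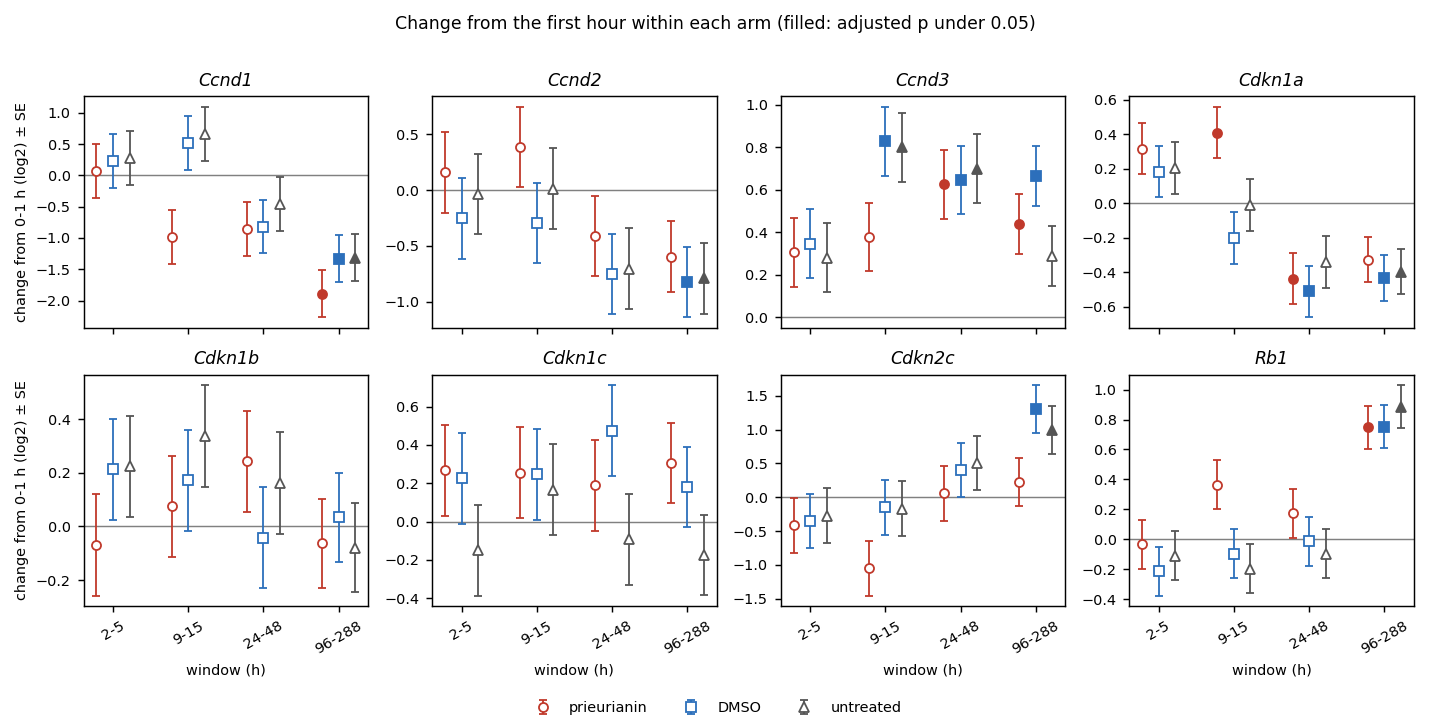
Change from 0-1 h within each arm (log2 units, ± SE) in 4 later windows for each of the 8 genes, with prieurianin as circles, DMSO as squares and untreated cells as triangles, filled where the adjusted p is under 0.05. Rb1 is up by 0.75 to 0.88 in all 3 arms at 96-288 h, and Cdkn2c is up in DMSO (1.30) and untreated cells (0.999).

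The kinases and partners of the D cyclins, and inhibitors outside the 10 genes, were read from a list of 14 genes, of which 12 were tested. At 9 to 15 h 5 of them passed against DMSO, all lower, where 8.59% of all genes were called lower, with a list median of -0.30 against -0.014 for all genes. These were Ccne1 (-1.44 ± 0.19, adjusted p = 4.19e-06) and Ccne2 (-0.87 ± 0.19), the E cyclins that activate CDK2, then Skp2 (-0.59 ± 0.155), which targets p27 for degradation, Cdc25a (-0.56 ± 0.13), a phosphatase that activates CDK2, and Cdk2 itself (-0.44 ± 0.14). The partners of cyclin D, Cdk4 (-0.06 ± 0.12) and Cdk6 (-0.28 ± 0.17), did not pass against DMSO. Against untreated cells, where 13.6% of all genes were lower and 11.8% higher, 7 were lower and 1, Cdk7, the kinase of the CDK-activating complex, was higher (1.10 ± 0.30). There Cdk4 (-0.41 ± 0.12) and Cdk6 (-0.49 ± 0.17) were among the lower ones. Cdk7 was not among the genes called against DMSO.

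Among pocket proteins and E2F factors 3 of 11 tested were lower at 9 to 15 h against DMSO (8.59% of all genes) and none was higher. Rbl1, which encodes the Rb1 relative p107, was at -0.81 ± 0.23 (adjusted p = 0.0121), Tfdp1, the dimer partner of E2F factors, at -0.69 ± 0.13 and the repressor E2f7 at -0.52 ± 0.16, while E2f1 was at -0.47 ± 0.17 and did not pass (adjusted p = 0.0541). Rb1 therefore differed from DMSO in the opposite direction to Rbl1, and Rbl2 was at -0.22 ± 0.145 (adjusted p = 0.364). Against untreated cells 4 of the 11 were lower (13.6% of all genes).

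The genes of DNA replication, many of them known E2F targets, were lower in the same hours. Of 17 S-phase genes tested 16 were lower with prieurianin than with DMSO at 9 to 15 h (8.59% of all genes) and 14 were lower than in untreated cells (13.6% of all genes), with list medians of -1.045 and -0.883. Examples against DMSO are Cdc6, a loader of replication origins (-1.79 ± 0.33), Tk1, thymidine kinase (-1.71 ± 0.25), Rrm2, a subunit of ribonucleotide reductase (-1.49 ± 0.36), Mcm5, part of the replicative helicase (-1.16 ± 0.30), and Ccna2, cyclin A2 (-1.09 ± 0.33).

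The list mean at 9, 12 and 15 h was 11.69, 11.60 and 11.52 in prieurianin cells, 12.25, 12.73 and 12.85 in DMSO cells and 12.17, 12.67 and 12.81 in untreated cells. The prieurianin mean stayed flat over these hours where both control arms climbed. At 24 h it was 12.35 in prieurianin cells, against 12.37 in DMSO cells. At 24 to 48 h none of the 17 passed against DMSO, where only 1.28% of all genes did. In that window 1 was higher than in untreated cells, where 8.18% of all genes were called either way. Of 11 mitosis genes tested, 3 were lower at 9 to 15 h against DMSO, where 8.59% of all genes were (Top2a, Aurkb and Birc5, at -1.53 ± 0.41, -1.10 ± 0.36 and -0.96 ± 0.26). In the late window 7 of the 11 were higher (7.56% of all genes), with a list median of 0.719 against 0.015 for all genes, among them Mki67, a marker of cycling cells (0.97). Of the 11, 5 were higher without the prieurianin 192 h array (12.9% of all genes), with a list median of 0.477. In that fit 1 of the 17 S-phase genes was higher than with DMSO and none was lower, with a list median of 0.259.

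The list of p53 regulators and targets, 21 tested of 26, was split at 9 to 15 h, with 4 higher and 3 lower against DMSO (7.33% and 8.59% of all genes) and a median of -0.017. The higher ones were Btg2 (2.48 ± 0.26, adjusted p = 1.04e-07), an antiproliferative factor, Ccng2 (1.72 ± 0.14, adjusted p = 1.36e-09), an unconventional cyclin also induced by FOXO factors, Gadd45a (1.23 ± 0.32), a stress gene, and Tigar (0.66 ± 0.14), a regulator of glycolysis. The lower ones were Pidd1 (-0.90 ± 0.17), Aen (-0.58 ± 0.18) and Ppm1d (-0.54 ± 0.16), the last a phosphatase that restrains p53. Ccng1, a classic p53 target, was at -0.27 ± 0.12 (adjusted p = 0.133), and the Mdm4 probe was under the intensity filter. Against untreated cells 5 were higher and 4 lower (11.8% and 13.6% of all genes), Ccng1 (-0.55 ± 0.12) among the lower.

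Of 11 tested regulators upstream of D cyclins and inhibitors, 2 were higher and 2 lower than in DMSO cells at 9 to 15 h (7.33% and 8.59% of all genes). Jun (1.01 ± 0.17), an AP-1 subunit, and Klf4 (1.001 ± 0.257), a zinc finger factor known to induce Cdkn1a, were higher. Egr1 (-1.48 ± 0.21), a growth factor-induced factor whose probe was saturated on 6 of the 54 arrays, and Smad3 (-0.41 ± 0.12), a mediator of TGF-beta signals, were lower. Myc, an inducer of D cyclins, was at -0.18 ± 0.18 (adjusted p = 0.589).

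Over the 54 arrays the genes most like Ccnd1 by Pearson correlation were Steap2 (0.904), Slit2 (0.898) and Ube2cbp (0.892). Echs1 (0.921), Cldn15 (0.919) and Cavin1 (0.91) were most like Cdkn2c, and Pnpla8 (0.92), Radil (0.89) and Riok3 (0.884) most like Rb1. For Cdkn1a these were Tnfrsf12a (0.841), Mapkapk2 (0.836) and Gsto1 (0.81), for Ccnd3 Nfya (0.826), Mrpl50 (0.826) and Exosc5 (0.819), and for Ccnd2 Isg15 (0.782), Lipi (0.772) and Nqo2 (0.772). For the dim genes they were Mapk13 (0.884), Ntan1 (0.869) and Tnnc1 (0.83) for Cdkn1c and Gtf2h5 (0.685), Zfp398 (0.642) and Efnb3 (0.624) for Cdkn1b. The arrays share times and arms, so these values describe likeness of course only.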

How the data were processed

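The deposited values were taken as linear probe intensities, from the values themselves (-83 to 65497, 0.466% below 0), since their unit, scanner, background correction and scaling are not given in the sources used here. Per the labels' protocols, column-purified RNA was amplified, coupled to Cy5 and hybridised. The deposited intensities were quantile normalised, floored at 0 and taken as log2(value + 16). Probes within 50 units of an array's highest value were called saturated. Each gene was tested through its probe of highest mean, and 12792 genes with a mean above 6.0712, the lower quartile, were kept.

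Arms were compared in limma 3.58.1 (R 4.3.3), with time as a factor and an arm effect in each of 5 windows (24 residual degrees of freedom, 0 h left out). Courses were tested with a mean per arm and window over 54 arrays (39 residual degrees of freedom). Adjusted p-values are Benjamini-Hochberg values over all genes, with a threshold of 0.05. The fits were tested on simulated data. The labels number no replicates, and arms were matched by time in the comparison of arms but not in the test of courses. The 10 genes and the lists were chosen with earlier results of these data known. Named genes were all 10, preset genes of each list, its 4 called genes with the largest difference from DMSO at 9 to 15 h, and the 3 genes most like each. Cdk7, Rbl2, Myc, Tigar, Aen, Ppm1d, Mki67 and the genes named for the late window were chosen after their values were seen. Symbols come from the platform annotation, updated through RefSeq. Alternatives were median centring, no scaling, a pseudocount of 64, no intensity filter, all probes, no prieurianin 192 h array, time as a random block, only 2 arms, 3 windows, and each time left out.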

Additional observations from a re-analysis of the deposited data

Results flagged for a closer look

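The difference of Ccnd1 between prieurianin and DMSO was not the same in all windows: it changed by -1.44 between 0.25-1 h and 9-15 h and by 1.46 between 9-15 h and 24-48 h. Both changes were past the limma threshold with the brightest probe, but not with every Ccnd1 probe, as given above.

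In the windows of 4 and 5 arrays, 48 groups (8 genes, 3 arms, 2 windows) were searched for a single array far from the rest, and 4 were found, where chance gives about 1 in 20. All 4 lie at 0 to 1 h, the first window of the course comparisons. Ccnd2 was at 12.32 on the prieurianin 0 h array, against 11.76 to 11.79 at 0.25 to 1 h. Ccnd3 was at 12.86 on the DMSO 0.5 h array, below 13.05 to 13.06 on the others. Cdkn1a was at 14.45 on the prieurianin 1 h array, against 14.17 to 14.20. Cdkn1c was at 8.84 on the untreated 1 h array, against 7.89 to 8.03.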

How the results depend on the processing

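Of the differences between arms, Ccnd1 at 9 to 15 h kept its call in 25 of 25 alternative settings, against DMSO (-1.84 to -1.26, highest adjusted p 0.0192) and against untreated cells (-2.068 to -1.499). Many of these settings leave out a time outside the window, which leaves the difference unchanged and alters only its error and adjusted p. The other calls were each lost in at least 1 setting: Ccnd3 in 3 and 1 of 25 against DMSO and untreated cells, Rb1 in 3 and 4 of 25, Cdkn1a in 6 of 25, late Cdkn2c in 18 and 12 of 26, and late Ccnd1 against untreated cells in 7 of 26, among them the random block (adjusted p = 0.135) and 2 arms (0.0758). Unless a cause is named, it was not tested. Without scaling, Cdkn1b in untreated cells at 2 to 5 h minus 0 to 1 h changed sign (-0.51, or -0.515 unrounded, adjusted p = 0.00917). For DMSO minus untreated the median of all genes was -0.307 at 0.25 to 1 h without scaling, against -0.002, and -0.317 at 24 to 48 h with median centring, against -0.038. The fit of courses did not match arms by time. Arms were already matched by time within the fit of arm differences, except with time as a random block. Beyond that, no paired analysis was possible because the labels number no replicates.

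For prieurianin against DMSO at 9 to 15 h, the 4 called genes of the 8 became 1 with median centring and 2 without scaling (1 to 5 with a time left out). The 2037 called of all genes became 750 with median centring (849 to 2619 with a time left out). At 96 to 288 h the 1 called gene became 0 with median centring, no scaling, no filter and 2 arms (0 to 1), and the 2175 of all genes became 827 with median centring, 1430 without scaling and 3554 without the prieurianin 192 h array (870 to 3466). At 24 to 48 h 164 of all genes became 51 without scaling, 360 without that array and 93 with 2 arms (61 to 363). At 2 to 5 h 18 became 9, 8 and 3 with median centring, no scaling and 2 arms (0 to 32). At 0.25 to 1 h limma called 0 of all genes (258 at an unadjusted p under 0.05), and 1 with no filter or all probes.

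For prieurianin against untreated cells, the 2 late calls among the 8 (Ccnd1 and Cdkn2c) became 0 with median centring and 2 arms, stayed at 2 but as Cdkn2c and Rb1 without the prieurianin 192 h array, and became 1 with the random block and 3 windows (1 to 2 with a time left out). The 3 at 9 to 15 h became 1 to 4, and the 0 at 24 to 48 h became 1 without the prieurianin 192 h array (0 to 1). Median centring called 678 of all genes higher and 695 lower than in untreated cells at 96 to 288 h, and 613 and 1097 at 9 to 15 h. For DMSO against untreated cells at 24 to 48 h, 0 became 1 with median centring, which called 201 of all genes higher and 1320 lower. Apart from shares given above, those of all genes in the other settings are not given here.

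For courses in prieurianin cells, 1 call at 9 to 15 h became 0 with median centring, no filter and all probes, and 2 without the 192 h array (0 to 3), 2 at 24 to 48 h became 0 with median centring and 1 with no scaling, no filter and all probes (1 to 2), and 3 at 96 to 288 h became 2 to 5. In DMSO cells 2 at 24 to 48 h became 1 without scaling (1 to 2). In untreated cells 0 at 2 to 5 h became 1 with median centring and 3 without scaling, 1 at 24 to 48 h became 3 without scaling (0 to 1), and 5 late became 3 with median centring (2 to 5).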

Other observations

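The late window also held differences in genes near the D cyclins and p53 not described above. At 96 to 288 h Skp2 (0.49), E2f3 (0.49) and E2f7 (0.50) were higher with prieurianin than with DMSO, with limma adjusted p of 0.00591, 0.0171 and 0.00536. Skp2 and E2f7 were lower at 9 to 15 h. Of 21 p53 regulators and targets 3 were higher late than in DMSO cells and none was lower (7.56% and 9.44% of all genes). Against untreated cells 5 were higher and 4 lower, where 22.4% of all genes were called either way and 10.8% lower. The 3 higher than in DMSO cells were Gadd45a (0.85), Tnfrsf10b (0.85), which encodes a death receptor, and Gdf15 (0.67), a secreted stress factor, while the first Cdkn1a probe was at 0.001. Upstream, Egr1 (-0.99), Cebpa (-1.20), a fat cell transcription factor known to bind cyclin-dependent kinases, and Smad3 (-0.34) were lower. Without the prieurianin 192 h array these 9 genes kept their direction and passed against DMSO, with 0.54, 0.62 and 0.55 for Skp2, E2f3 and E2f7, 1.31, 1.11 and 0.91 for Gadd45a, Tnfrsf10b and Gdf15, and -1.135, -1.78 and -0.41 for Egr1, Cebpa and Smad3. Of the 21, 7 were then higher and 1 lower than in DMSO cells (12.9% and 14.9% of all genes), the lower being Trp53inp1 (-0.62, adjusted p = 0.0496), with Plk2 (1.35) and Fas (1.13) among the higher. Against untreated cells 8 were then higher and 4 lower, and the share of all genes in that fit is not given here. The fit to all probes without that array called 27.5% of all probes either way. Against DMSO it called 24.3% of all probes, where the fit to genes called 27.8% of all genes.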
